A study of Mus musculus with 18 samples.

Results

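A set of 8 genes of alternative macrophage activation and of alveolar macrophages was followed across 4 populations of mouse myeloid cells that did or did not express an active form of the kinase BRAF. The genes were Retnla, Chil3, Pparg, Car4, Krt79, Il4ra, Stat6 and Ear2. They were taken by symbol from an Affymetrix expression array, using probe sets that map to 1 gene symbol. Of the 8 genes, 7 had such a probe set, out of 19752 genes represented in the table, and each of the 7 had exactly 1. By RefSeq on GRCm38.p6 they lie at chr16:48842609-48844461 (Retnla), chr3:106147554-106167564 (Chil3), chr6:115360879-115490404 (Pparg), chr11:84957754-84966054 (Car4), chr15:101929332-101940324 (Krt79), chr7:125552271-125579474 (Il4ra) and chr10:127642955-127660987 (Stat6). Ear2, an eosinophil-associated ribonuclease gene on chromosome 14, had none and is only named.

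BRAF samples came from mice carrying the BRAFV600E(CA-flox) allele with CD11c-Cre, and WT samples from Cre-negative littermates that also carried the floxed allele. CD11c-Cre is active in cells that express the integrin CD11c, which includes dendritic cells and alveolar macrophages, so the allele need not be switched on in every sorted cell. The BRAFV600E protein signals constantly through MEK and ERK, and the study concerns such signalling in dendritic cells, as in the histiocytic disease LCH. Bone marrow derived dendritic cells (BMDC) were grown from marrow of 5-week-old mice and sorted as live CD11c+CD11b+ cells, with 3 arrays per genotype. CD103+ and CD11b+ cells of the lung and CD11b+ cells of the liver came from unmanipulated 14-week-old mice, with 2 arrays per genotype in each. The labels number the replicates without saying that they are separate animals, so the p-values reflect only how far these samples spread, and that spread may be technical.

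Interleukin-4 and interleukin-13 act on macrophages and dendritic cells through a receptor chain encoded by Il4ra, which leads to activation of the transcription factor STAT6. In mice, Retnla (a secreted resistin-like protein), Chil3 (a secreted chitinase-like protein) and the arginase gene Arg1 are the classical readouts of this pathway in macrophages. Pparg encodes a lipid-sensing nuclear receptor that is needed for alveolar macrophages to mature, and Chil3, Car4 (a membrane-bound carbonic anhydrase) and Krt79 (a keratin) are often used as their markers. Both programmes are best known from macrophages, so their level in dendritic cell sorts depends on which cells are in the sort as well as on what each cell makes. In bulk RNA, fewer cells of a type and less RNA per cell cannot be told apart.

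Retnla carried the only called genotype change among the 7 genes, and its upstream sequence is shown because it held the only motif match found. RefSeq promoters of all 8 genes (250 bases before to 50 after the start, GRCm38.p6) were searched on both strands for a STAT6-type motif (TTC and GAA with any 4 bases between them) and a PPAR-type motif (AGGTCA repeated with any 1 base between the copies). The first motif reads the same on both strands. It was present in Retnla alone, starting 145 bases before the start, and in 6.95% of all 32851 promoters searched. The PPAR-type motif was in none of the 8, and in 0.04% of all promoters. The 250 bases before the Retnla start (chr16:48842359-48842608, plus strand) follow, with the match in capitals.
Retnla upstream: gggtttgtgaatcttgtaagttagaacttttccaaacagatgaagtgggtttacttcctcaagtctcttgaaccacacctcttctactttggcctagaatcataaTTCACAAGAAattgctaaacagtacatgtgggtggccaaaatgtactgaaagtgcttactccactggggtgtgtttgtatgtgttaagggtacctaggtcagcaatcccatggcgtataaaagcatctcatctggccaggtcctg

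Values below are log2 of the deposited array signal. A difference is BRAF minus WT in log2 units with its standard error. That error rests on a spread per gene shared by all 8 groups, so it is not the spread of the arrays compared. A gene was called when limma's Benjamini-Hochberg adjusted p over 15365 genes was under 0.05. Several arrays stood apart in ways that bear on these genes. The 2 WT lung CD103+ arrays differed from each other: 15 of 22 measured alveolar macrophage genes were more than 1 log2 unit higher on replicate 1 and 0 on replicate 3. The summed signal of 12 general macrophage genes was 6589 on WT lung CD103+ replicate 1 and 3919 on replicate 3. The summed signals of 10 lung epithelial genes (4674 and 1657) and of 5 T and NK cell genes (921 and 198) differed in the same direction between these 2 arrays. Among the BRAF lung CD11b+ arrays, 11 of the 22 alveolar genes were more than 1 log2 unit higher on replicate 2 and 1 on replicate 1. Replicate 1 of that group instead had high signal of Kupffer cell genes, such as Vsig4 (11.94, against 5.87 on replicate 2) and Cd5l (10.33, against 5.2). On BRAF lung CD103+ replicate 1 hepatocyte genes were high, such as Alb (10.98, against 6.57 on replicate 2) and Apoa1 (9.52, against 6.7). In that group 7 of the 22 alveolar genes were more than 1 log2 unit higher on replicate 1 and 1 on replicate 2. The lung epithelial sums of its arrays ran from 2614 to 9708. Log2 values had a narrow interquartile range on BRAF BMDC replicate 2 (1.9) and WT liver replicate 3 (1.92), where the other 16 arrays had 2.41 to 2.99.

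The name of the gene set held only in part for these samples. Marco, a scavenger receptor of alveolar macrophages, lay between 5.95 and 6.88 on all 18 arrays, and Krt79 between 6.17 and 7.27, both near the middle of each array and with little spread. Siglecf, a surface lectin that marks alveolar macrophages and eosinophils, lay between 7.45 and 8.47. The lipid carrier gene Fabp4 ranged more widely, from 5.2 to 8.09. Car4 was highest in BMDC, which are grown from marrow. The plot of all arrays shows the spread of the other genes, from 4.03 to 11.02 for Retnla, 3.67 to 12.26 for Chil3 and 6 to 13.12 for Car4. Pparg ran from 6.76 to 10.32, Il4ra from 8.13 to 10.04 and Stat6 from 8.83 to 10.46.

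**Figure D1:**
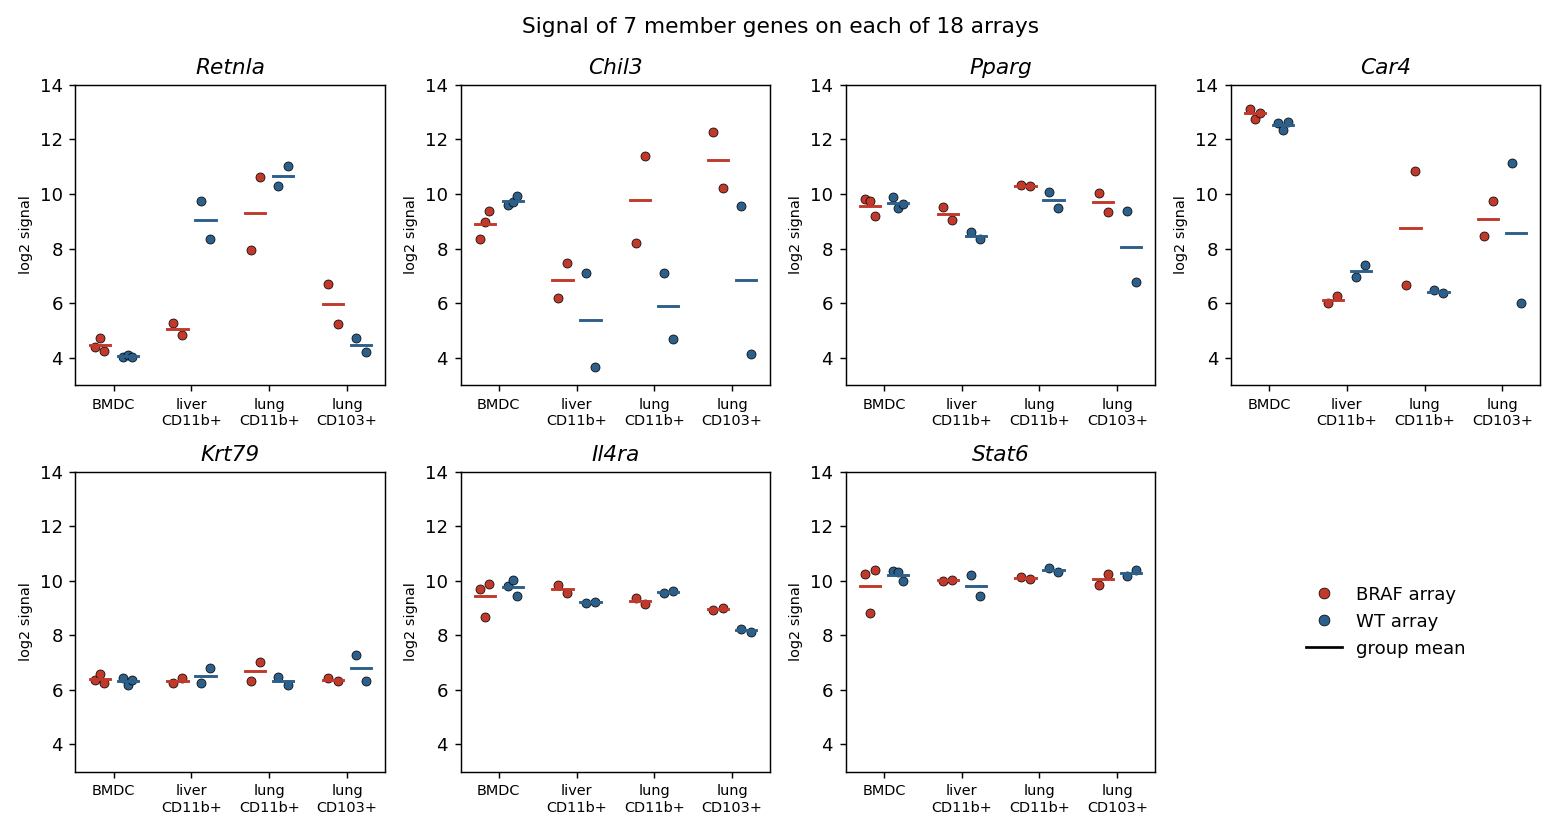
Log2 signal (vertical axis) of the 7 measured genes on each of 18 arrays, by population (horizontal axis). Red points are BRAF arrays, blue points WT arrays and bars group means (n = 3 in BMDC, n = 2 elsewhere). Retnla separates the genotypes in liver, with BRAF arrays at 5.29 and 4.84 against WT arrays at 9.74 and 8.36, and the 2 WT lung CD103+ arrays lie far apart for Chil3, Car4 and Pparg.

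The receptor and its transcription factor were measured in every population, and neither was called between the genotypes. Il4ra, the chain that binds interleukin-4, was at 9.71, 8.68 and 9.9 on BRAF BMDC arrays, against 9.82, 10.04 and 9.46 on WT BMDC arrays. In liver it was at 9.85 and 9.56 in BRAF cells, against 9.2 and 9.21 in WT cells. Lung CD11b+ cells gave 9.36 and 9.15 with BRAF, against 9.55 and 9.64 in WT. The lowest Il4ra signals were those of lung CD103+ cells, at 8.93 and 8.99 on BRAF arrays and 8.25 and 8.13 on WT arrays. BRAF arrays thus lay above WT arrays without overlap in liver and lung CD103+ cells, below them in lung CD11b+ cells, and overlapped them in BMDC. The differences were 0.77 ± 0.32 in lung CD103+ cells, -0.35 ± 0.32 in lung CD11b+ cells, 0.5 ± 0.32 in liver and -0.34 ± 0.26 in BMDC, with limma adjusted p between 0.458 and 1.

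Between populations, Il4ra was lower in lung CD103+ than in lung CD11b+ cells by the same test. Averaged over both genotypes it was 8.57 in lung CD103+ and 9.42 in lung CD11b+ cells, a difference of -0.85 ± 0.22 (limma adjusted p = 0.0348), with no overlap of the arrays. In this comparison 2 of the 7 genes were called, both lower, where 3.13% of all genes were called lower and 5.64% in either direction. The call is fragile, since the adjusted p was 0.0659 with the replicate number as a block and lay between 0.0596 and 0.141 when any 1 of the 8 lung arrays was left out. Liver and lung CD11b+ cells had nearly the same Il4ra signal (9.45 and 9.42, difference 0.03 ± 0.22, 95% interval -0.44 to 0.51).

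Stat6 stayed between 8.83 and 10.46 on all arrays. Its lowest value came from BRAF BMDC replicate 2, 1 of the 2 arrays of narrow spread, while the other BRAF BMDC arrays were at 10.24 and 10.4, against 10.37, 10.31 and 10.01 on WT BMDC arrays. Among lung CD11b+ cells the BRAF arrays (10.15 and 10.05) lay just below the WT arrays (10.46 and 10.31). The genotype differences ran from -0.4 ± 0.33 in BMDC to 0.19 ± 0.4 in liver, and none was called. Of 17 tested genes of interleukin-4 and interleukin-13 signalling, which include the kinases Jak1, Jak2 and Tyk2, the receptor chain Il13ra1 and the inhibitors Socs1 and Socs3, 0 were called by limma in any of the 4 genotype comparisons. Their median difference was -0.21 in lung CD103+ cells, -0.35 in lung CD11b+ cells, -0.03 in liver and -0.32 in BMDC, where all genes together had -0.08, 0, 0.08 and 0. Il13ra1, which pairs with Il4ra, differed by 0.56 ± 0.29 in BMDC and -0.62 ± 0.35 in lung CD103+ cells, and by less in the other populations.

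Retnla was the gene of the set with a called genotype difference, in liver CD11b+ cells. It was at 5.29 and 4.84 on the BRAF liver arrays, against 9.74 and 8.36 on the WT liver arrays. The BRAF values were at the 18.3 and 15.1 percentile of their arrays and the WT values at the 91.8 and 83.7 percentile. The difference was -3.99 ± 0.67 (95% interval -5.42 to -2.57, 15.9-fold lower in BRAF), with a limma adjusted p of 0.0292, rank 14 among all genes tested. It was 1 of 7 genes called in liver, where 0.215% of all genes were called and 0.0716% were called lower. Since the BRAF values lie below the 30th percentile that was used as the floor for testing, the size of the fold is less certain than its direction.

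The direction held under each setting tried, but the call did not. Without WT liver replicate 1 the difference was -3.30 (adjusted p = 0.067), without BRAF liver replicate 3 it was -3.77 (0.103), with array weights -3.99 (0.478) and after adding 32 to each signal -3.11 (0.0506). Markers of other cell types also differed between the genotypes on these 4 arrays. The summed signal of 13 dendritic cell genes was 11564 and 13511 on the BRAF liver arrays, against 13881 and 15027 on the WT liver arrays, and 11 of the 13 were lower with BRAF. The 7 mast cell and basophil genes summed to 254 and 327 in BRAF, against 472 and 497 in WT, and Cpa3, a mast cell protease gene, was called lower (-1.66 ± 0.26, limma adjusted p = 0.0214). Kit, which is also in the dendritic cell list, was at 6.2 and 6.63 in BRAF, against 7.35 and 7.63 in WT. Of the 5 mast cell and basophil genes tested 1 was higher with BRAF, Mcpt8, whose arrays overlapped (5.14 and 6.77 against 5.16 and 6.1). Eosinophil genes summed to 456 and 580 in BRAF and 542 and 727 in WT, and the 12 macrophage genes to 17047 and 19235 in BRAF and 15844 and 17497 in WT. The 5 monocyte genes summed to 8554 and 13383 in BRAF, against 5806 and 8211 in WT, with a median difference of 1.21 and none called. The 9 neutrophil genes summed to 1062 and 1079 in BRAF, against 571 and 620 in WT. Of the 9 genes 6 were higher, Mmp8 by the most (2.5 ± 0.76), while Cxcr2 was lower (-1.36 ± 0.41), and none was called. The 5 T and NK cell genes summed to 201 and 207 in BRAF, against 339 and 344 in WT. Only 2 of these 5 genes passed the signal floor used for testing. The 10 lung epithelial genes summed lower too, from 679 to 822 in BRAF against 1095 to 1130 in WT, with 0 of 9 tested genes higher. WT liver replicate 3 is also an array of narrow spread, and whether that affected sums of low signals was not tested. Of these lists, the eosinophil and macrophage sums overlapped between genotypes and the others did not. The sums of Kupffer cell, hepatocyte and B cell genes overlapped as well. The part of these cells in the Retnla difference was not tested.

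Lung CD11b+ cells had a high Retnla signal in both genotypes. The BRAF arrays gave 7.94 and 10.64, against 10.31 and 11.02 on the WT arrays. The groups overlapped, and the difference of -1.38 ± 0.67 was not called (limma adjusted p = 0.776). BRAF replicate 1, the low array, is the one with high Kupffer cell genes, and without replicate 2 the difference was -2.73 (adjusted p = 0.0474). In lung CD103+ cells Retnla was low, at 6.7 and 5.25 on BRAF arrays against 4.74 and 4.22 on WT arrays. These groups did not overlap, BRAF being higher, but the difference of 1.5 ± 0.67 was not called (adjusted p = 1). BMDC had the lowest signals, 4.41, 4.73 and 4.25 with BRAF against 4.03, 4.1 and 4.03 in WT, all under the 10th percentile of their arrays in both genotypes (0.41 ± 0.55, adjusted p = 0.783).

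Ordered by mean signal, lung CD11b+ cells were highest (9.29 ± 1.9 in BRAF and 10.67 ± 0.5 in WT, SD, n = 2 each). WT liver cells (9.05 ± 0.98) came next and did not differ from BRAF lung CD11b+ cells beyond the spread. BRAF lung CD103+ (5.98 ± 1.03), BRAF liver (5.06 ± 0.32), WT lung CD103+ (4.48 ± 0.37), BRAF BMDC (4.46 ± 0.24) and WT BMDC (4.05 ± 0.04) formed a low end. Within it the arrays of BRAF lung CD103+ and BRAF liver cells overlapped, as did those of WT lung CD103+ cells and BRAF BMDC. Averaged over genotypes, Retnla was 5.23 in lung CD103+ and 9.98 in lung CD11b+ cells, lower in the CD103+ cells (-4.75 ± 0.47, limma adjusted p = 1.43e-05), with no overlap. With the replicate number as a block the adjusted p was 0.000112. On 3 of the 4 lung CD103+ arrays Retnla was below the 30th percentile of the array, and no fold is given. It was also lower in liver than in lung CD11b+ cells (7.06 and 9.98, -2.92 ± 0.47, limma adjusted p = 0.00648), as 1 of 7 genes where 1.91% of all genes were called lower and 2.12% in either direction. The liver and lung arrays overlapped, and a fit of only these groups gave an adjusted p of 0.0544. The liver mean joins 9.05 in WT and 5.06 in BRAF cells, so this difference includes the genotype change in liver.

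**Figure D2:**
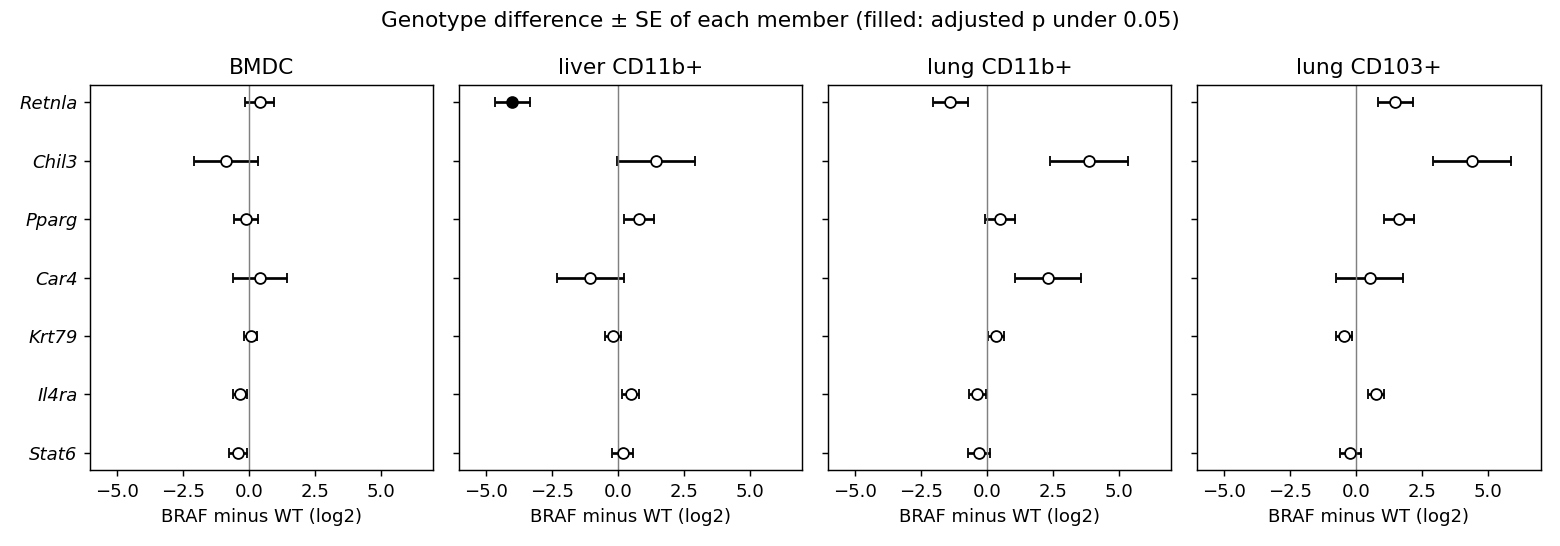
BRAF minus WT difference in log2 units (horizontal axis) of the 7 genes (vertical axis) in each population, with standard errors as bars. A filled point is a gene with a limma adjusted p under 0.05. The filled point is Retnla in liver at -3.99, and Chil3 lies furthest to the right in both lung populations (3.89 and 4.4).

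Whether the genotype effect on Retnla differed between populations was tested directly. The effect in liver minus that in lung CD103+ cells was -5.49 ± 0.94 (limma adjusted p = 0.0863), and the effect in BMDC minus that in liver was 4.4 ± 0.86 (0.0708). The effect in liver minus that in lung CD11b+ cells was -2.61 ± 0.94 (0.531). The other 3 of the 6 pairwise differences were -2.88 ± 0.94 for lung CD11b+ minus lung CD103+ cells (1), 1.79 ± 0.86 for BMDC minus lung CD11b+ cells (1) and -1.09 ± 0.86 for BMDC minus lung CD103+ cells (0.994). Over the 4 populations the moderated F test gave an adjusted p of 0.0709 for Retnla, between 0.00322 and 0.223 over the alternatives. It was 0.0386 after quantile normalization, 0.0431 with array weights and 0.00322 without BRAF lung CD11b+ replicate 2. None of the 7 genes was called by this test, 3 had an unadjusted p under 0.05 (9.1% of all genes), and 0.124% of all genes were called.

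Among its relatives, Retn and Retnlg, the other resistin-family genes tested, showed no called difference in any genotype comparison. Retn stayed between 5.92 and 6.92 and Retnlg between 5.1 and 7.02 on all 18 arrays. The range of Retnla, from 4.03 to 11.02, was not shared by either.

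Chil3 had the largest estimated difference of the 7 genes in both lung populations, with wide gaps between the arrays of a group. In lung CD103+ cells it was at 12.26 and 10.24 on BRAF arrays, against 9.57 and 4.13 on WT arrays. The lung CD11b+ arrays gave 8.2 and 11.38 with BRAF, against 7.1 and 4.7 in WT. The genotypes did not overlap in either lung population, with BRAF higher. The differences were 4.4 ± 1.48 (unadjusted p = 0.00962, limma adjusted p = 0.555) and 3.89 ± 1.48 (unadjusted p = 0.0192, limma adjusted p = 0.507), so neither was called.

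The lung CD103+ value rests on the WT array used. Without WT lung CD103+ replicate 1 the difference was 7.12 (limma adjusted p = 0.031), and over the arrays left out in turn it lay between 1.68 and 7.12. For lung CD11b+ cells the same range was 2.30 to 5.48. In liver Chil3 was at 6.19 and 7.48 on BRAF arrays and 7.12 and 3.67 on WT arrays, which overlapped (1.44 ± 1.48, adjusted p = 0.642). BMDC pointed the other way, at 8.36, 8.96 and 9.38 with BRAF against 9.59, 9.7 and 9.94 in WT, without overlap (-0.85 ± 1.21, adjusted p = 0.79). The error is that shared by all groups, while the SD within BMDC was 0.51 with BRAF and 0.18 in WT. The moderated F test of a difference between populations gave an adjusted p of 0.548. Its close relative Chil4, a near copy whose RNA could add to a shared probe, stayed between 4.94 and 6.5 on all 18 arrays, and 0 of the 4 chitinase-family genes tested were called in a genotype comparison.

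Pparg was at 10.04 and 9.35 on BRAF lung CD103+ arrays, against 9.37 and 6.76 on the WT arrays. Lung CD11b+ cells gave 10.32 and 10.28 with BRAF, against 10.09 and 9.48 in WT, and in liver at 9.51 and 9.04 with BRAF, against 8.61 and 8.34 in WT. The arrays did not overlap in liver and lung CD11b+ cells, BRAF being higher, while BRAF replicate 2 and WT replicate 1 of lung CD103+ cells were nearly equal. BMDC arrays overlapped, at 9.81, 9.73 and 9.19 with BRAF against 9.89, 9.48 and 9.64 in WT.

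None of these Pparg differences was called. They were 1.63 ± 0.56 in lung CD103+ cells (unadjusted p = 0.0108, limma adjusted p = 0.591), 0.51 ± 0.56 in lung CD11b+ cells, 0.8 ± 0.56 in liver and -0.09 ± 0.46 in BMDC. Without WT lung CD103+ replicate 1 the lung CD103+ difference was 2.93 (adjusted p = 0.00134), and without WT replicate 3 it was 0.33. Averaged over genotypes, Pparg was lower in lung CD103+ than in lung CD11b+ cells by -1.16 ± 0.4, which was not called (adjusted p = 0.125), although it was without WT lung CD103+ replicate 1 (-1.81, adjusted p = 0.000299).

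Of 15 tested genes that pair with Pparg or are induced by it, 1 was called in the 4 genotype comparisons, in lung CD11b+ cells, where 0.338% of all genes were called. Angptl4, a secreted inhibitor of lipoprotein lipase, was at 7.42 and 7.61 on BRAF lung CD11b+ arrays, against 6.11 and 6.28 on the WT arrays (1.32 ± 0.21, limma adjusted p = 0.0123). It was also separate in lung CD103+ cells, at 7.36 and 6.99 with BRAF against 6.15 and 6.1 in WT, without a call (1.05 ± 0.21, adjusted p = 0.0783). The differences in liver and BMDC were -0.07 ± 0.21 and -0.32 ± 0.17, and the F test of a difference between populations called it (adjusted p = 0.042). Leaving out any 1 of the 4 lung CD11b+ arrays ended the lung CD11b+ call, with adjusted p between 0.0515 and 0.211. The median over the 15 tested genes of this list was 0.88 in lung CD103+, 0.65 in lung CD11b+, 0.19 in liver and -0.32 in BMDC. Over all genes the medians were -0.08, 0, 0.08 and 0. The list holds Pparg itself and shares it, Fabp4, Lpl, Abcg1, Cidec and Olr1 with the alveolar macrophage list, so the medians of these lists are not independent. Olr1 and Fabp4 were higher on WT lung CD103+ replicate 1 (9.3 and 6.56) than on replicate 3 (5.75 and 5.2), while others, Cd36 among them, were lower. The fatty acid transporter gene Cd36 was at 11.58 and 11.22 on BRAF lung CD11b+ arrays against 10.52 and 10.42 on WT arrays, without overlap and without a call (0.93 ± 0.45, limma adjusted p = 0.768). On the lung CD103+ arrays it overlapped, at 11.48 and 11.4 with BRAF against 11.13 and 11.68 in WT.

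Car4 was at 13.12, 12.76 and 12.98 on BRAF BMDC arrays against 12.6, 12.34 and 12.63 on WT BMDC arrays, all above the highest array of any sorted organ population (11.13). The genotypes did not overlap in BMDC, BRAF being higher, but the difference of 0.43 ± 1.03 was not called (limma adjusted p = 0.867). That error is shared by all groups. The SD within BMDC was 0.18 with BRAF and 0.16 in WT, against 2.96 in BRAF lung CD11b+ and 3.63 in WT lung CD103+ cells. Among lung CD11b+ cells 1 array decided its level: BRAF replicates 1 and 2 were at 6.67 and 10.86, against 6.48 and 6.37 in WT. In lung CD103+ cells BRAF arrays were at 8.45 and 9.74 and WT arrays at 11.13 and 6.0, so the WT group held both the highest and the lowest value. The differences were 2.33 ± 1.26 and 0.53 ± 1.26, neither called. When arrays were left out in turn they lay between 0.24 and 4.43 in lung CD11b+ cells, and between -2.04 and 3.09 in lung CD103+ cells, where the sign turned. In liver Car4 was at 6.0 and 6.27 with BRAF against 6.95 and 7.41 in WT, without overlap (-1.04 ± 1.26, adjusted p = 0.689). The SD within the liver groups was 0.19 with BRAF and 0.33 in WT. None of the 10 carbonic anhydrases tested, Car4 among them, was called in a genotype comparison.

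Krt79 gave no such contrast. Its highest values were 7.27 on WT lung CD103+ replicate 1 and 7.02 on BRAF lung CD11b+ replicate 2, the same arrays that were high in Car4 and Chil3 for their group. On the other 16 arrays it lay between 6.17 and 6.79, and its genotype differences ran from -0.43 ± 0.3 in lung CD103+ to 0.34 ± 0.3 in lung CD11b+ cells. Of the Ear2 relatives, Ear6, Rnase2a and Rnase2b were tested and 0 were called by limma in a genotype comparison.

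Over the 7 genes, 0 were called by limma in lung CD103+ cells, lung CD11b+ cells and BMDC, where 0.0846%, 0.338% and 0.521% of all genes were called in that order. At an unadjusted p under 0.05 the counts were 4, 1 and 0 of 7, against 4.26%, 6.71% and 6.65% of all genes. The 4 in lung CD103+ cells were Retnla, Chil3, Pparg and Il4ra, all higher with BRAF. The genotypes did not overlap, BRAF higher, for 3 of 7 genes in lung CD103+ cells, 3 in lung CD11b+ cells, 2 in liver and 2 in BMDC, against 9.16%, 21.6%, 22.7% and 6.99% of all genes. They did not overlap, BRAF lower, for 0, 2, 2 and 1 genes, against 19.3%, 24.8%, 15.8% and 9.08%. The mean effect over the 4 populations was 2.22 ± 0.71 for Chil3 (adjusted p = 0.201), 0.71 ± 0.27 for Pparg (0.339) and -0.86 ± 0.32 for Retnla (0.325), and 0 of 7 were called where 0.989% of all genes were.

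**Figure D3:**
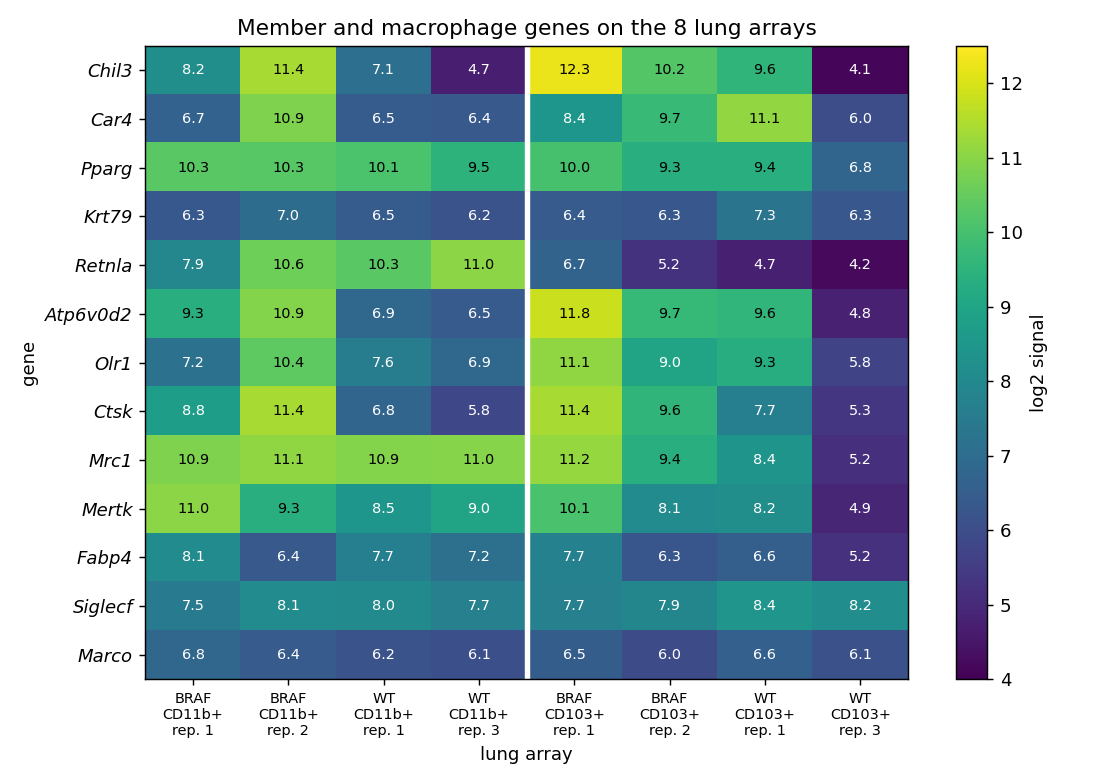
Log2 signal (colour and printed value) of 5 of the followed genes and 8 further macrophage genes (vertical axis) on the 8 lung arrays (horizontal axis). Chil3, Atp6v0d2, Olr1 and Ctsk are lower on WT lung CD103+ replicate 3 than on WT lung CD103+ replicate 1, and Marco lies between 5.95 and 6.8 on these arrays.

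A wider set of 22 alveolar macrophage genes, with Chil3, Car4, Pparg and Krt79 among them, gave many positive differences in lung and no calls. In lung CD11b+ cells 20 of the 22 were higher with BRAF, with a median of 0.74, and in lung CD103+ cells 18 were higher, with a median of 0.91, against medians of 0 and -0.08 over all genes. In BMDC and liver the medians were -0.32 and -0.14. By limma 0 of the 22 were called in each of the 4 comparisons. The lung rise was not particular to this list. The median of 10 Kupffer cell genes was 0.82 in lung CD11b+ cells (8 higher) and 1.44 in lung CD103+ cells (7 higher). That of 8 hepatocyte genes was 0.37 and 0.78 in that order, with 7 higher in each. Atp6v0d2, a proton pump subunit, was at 11.82 and 9.7 on BRAF lung CD103+ arrays against 9.59 and 4.77 on WT arrays, and at 9.35 and 10.92 on BRAF lung CD11b+ arrays against 6.87 and 6.45 on WT arrays. The protease gene Ctsk was at 11.38 and 9.55 on BRAF lung CD103+ arrays against 7.66 and 5.35 on WT arrays, and at 8.76 and 11.39 on BRAF lung CD11b+ arrays against 6.77 and 5.84 on WT arrays. Both were separate between the genotypes in both lung populations. Ctsk was called in the mean effect over the 4 populations (2.38 ± 0.45, limma adjusted p = 0.0191), and not without BRAF lung CD103+ replicate 1 (2.15, 0.0642), WT liver replicate 1 (2.33, 0.0629) or WT lung CD11b+ replicate 3 (2.27, 0.0566).

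These medians depended on the arrays that stood apart. Without BRAF lung CD11b+ replicate 2 the lung CD11b+ median was 0.21. Without WT lung CD103+ replicate 1 the lung CD103+ median was 1.57, with 6 genes called higher, and without WT replicate 3 it was 0.37. General macrophage genes moved in the same direction in lung CD103+ cells: all 12 were higher with BRAF, with a median of 2.32, and their summed signal was 20841 and 9050 on BRAF arrays against 6589 and 3919 on WT arrays. Fcgr4, an immunoglobulin receptor gene, was the 1 of the 12 called (10.89 and 10.42 on BRAF arrays against 8.27 and 5.62 on WT arrays, 3.71 ± 0.64, limma adjusted p = 0.0436). That call was lost without BRAF replicate 1 (3.47, 0.671) or WT replicate 3 (2.38, 0.234). The lung CD11b+ macrophage sums overlapped, at 40973 and 22617 with BRAF against 21723 and 29928 in WT. The 5 monocyte genes summed to 8022 and 6716 on BRAF lung CD103+ arrays against 3401 and 3984 on WT arrays. Their median difference was 2.43, and none was called. Most of the gap in these sums came from Fn1, at 12.15 and 11.66 with BRAF against 9.43 and 6.47 in WT. F13a1 and Plac8 were also higher without overlap, while Ccr2 and Vcan overlapped and were lower with BRAF by their means. Fn1 was also high in BMDC of both genotypes, and which cells its lung signal came from was not tested. The 13 dendritic cell genes summed to 23947 and 31962 on BRAF lung CD103+ arrays and to 31669 and 38260 on WT arrays. On the lung CD11b+ arrays they summed to 9632 and 16104 with BRAF against 18268 and 18331 in WT, without overlap, and 10 of the 13 were lower with BRAF (median -0.73). Ccr7, a chemokine receptor gene, was the 1 called (-3.11 ± 0.34, limma adjusted p = 0.00141). Other lung CD11b+ sums were also apart. The 4 B cell genes summed to 434 to 825 with BRAF against 1209 to 1761 in WT, with 0 of 4 higher. Sums of lung epithelial genes (1160 to 1248 against 2118 to 2212) and mast cell and basophil genes (242 to 325 against 473 to 497) were lower with BRAF. Yet 5 of 9 and 3 of 5 tested genes of these 2 lists were higher. Eosinophil sums were slightly higher (554 to 559 against 485 to 551). The 9 neutrophil genes summed higher with BRAF in both lung populations, from 756 to 827 against 373 to 575 in lung CD103+ and from 872 to 1297 against 528 to 540 in lung CD11b+ cells. Of the 9 genes, 5 and 7 were higher in that order, and none was called. Mmp8 had the largest difference in both (2.54 ± 0.76 and 3.01 ± 0.76), and was also high in BMDC (10.69 to 12.09). Cxcr2 was lower with BRAF in both (-0.22 ± 0.41 and -0.99 ± 0.41). How far macrophages, monocytes or the other cells contributed to the Chil3, Pparg and Car4 values was not tested.

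Of 23 tested genes induced by interleukin-4, Retnla and Chil3 among them, limma called 0 in lung CD103+ cells, 2 in lung CD11b+ cells, 2 in liver and 1 in BMDC. The shares of all genes called were 0.0846%, 0.338%, 0.215% and 0.521%. The medians of the list were 0.26, -0.27, -0.31 and -0.27, and those of all genes -0.08, 0, 0.08 and 0. Arg1, which splits arginine, was called higher in BMDC, at 10.89, 10.24 and 10.86 with BRAF against 5.65, 6.08 and 6.07 in WT (4.73 ± 0.21, limma adjusted p = 1.16e-08). It was also called in lung CD11b+ cells, at 8.04 and 8.28 with BRAF against 5.99 and 5.59 in WT (2.37 ± 0.26, limma adjusted p = 0.00141). Both Arg1 calls held when each array of their groups was left out in turn. Slc7a2, an arginine transporter gene, was the second call in lung CD11b+ cells (9.16 and 9.46 with BRAF against 6.59 and 6.08 in WT, 2.98 ± 0.59, limma adjusted p = 0.0481), and that call was lost without any 1 of the 4 arrays, with adjusted p between 0.165 and 0.325.

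Ccl24, an eosinophil attractant of the same list, was the second call in liver beside Retnla, at 5.86 and 6.32 with BRAF against 7.82 and 7.72 in WT (-1.68 ± 0.29, limma adjusted p = 0.0377). That call was lost without WT replicate 3 (-1.73, 0.133), WT replicate 1 (-1.64, 0.0581) or BRAF replicate 3 (-1.92, 0.059). Ccl17 and Ccl22, the ligands of CCR4, were lower with BRAF in all 4 populations by their estimates, and both were called in the mean effect, at -2.02 ± 0.34 (limma adjusted p = 0.0108) and -2.06 ± 0.33 (0.00793). Ccl17 in liver was at 7.67 and 7.21 with BRAF against 11.15 and 10.8 in WT. The mannose receptor gene Mrc1 was at 11.15 and 9.37 on BRAF lung CD103+ arrays against 8.39 and 5.16 on WT arrays (3.48 ± 0.75, limma adjusted p = 0.128), and differed by 0.04 ± 0.75 in lung CD11b+ cells.

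**Figure D4:**
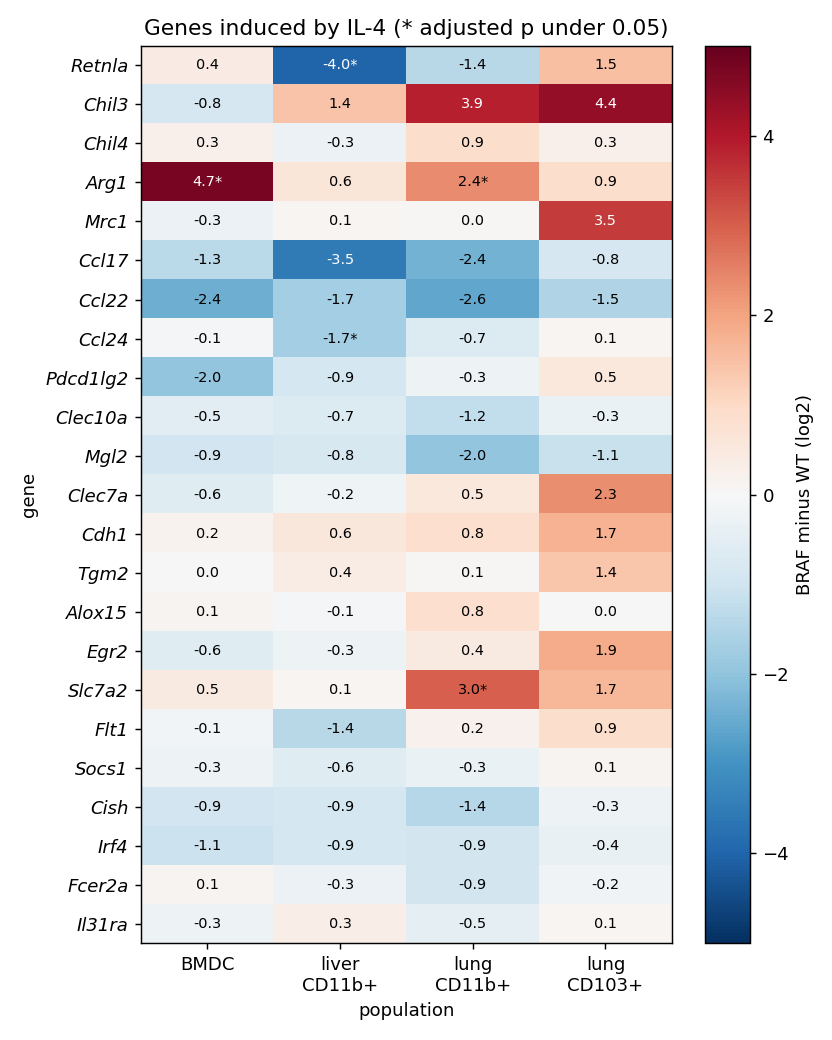
BRAF minus WT difference in log2 units (colour and printed value) of 23 genes induced by interleukin-4 (vertical axis) in the 4 populations (horizontal axis). An asterisk marks a limma adjusted p under 0.05. Arg1 is called higher in BMDC and lung CD11b+ cells, Slc7a2 higher in lung CD11b+ cells, and Retnla and Ccl24 lower in liver, while Ccl17 and Ccl22 are negative in every column.

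In lung CD103+ compared with lung CD11b+ cells 10 of the 23 were called lower and 0 higher, where 3.13% of all genes were called lower. Besides Retnla these were Arg1, Mrc1, Ccl24, Clec10a, Mgl2, Clec7a, Tgm2, Irf4 and Il31ra. The lectin gene Mgl2 was at 8.25 in lung CD103+ and 11.24 in lung CD11b+ cells (-2.99 ± 0.42, limma adjusted p = 0.000361), and Clec10a at 6.53 and 9.2 (-2.68 ± 0.46, 0.00208). Of the 12 general macrophage genes 9 were called lower in the same comparison, with a median of -2.09. With the replicate number as a block 10 of the 23 and 11 of the 12 were called lower.

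Similarity over the 18 arrays is given as a description, since arrays of a group share their source. The genes with the most similar pattern to Retnla by Pearson's r were Ptgs2 (0.915), Kitl (0.902) and Zfyve9 (0.891), and those for Chil3 were Olr1 (0.916), Flvcr2 (0.893) and Dmxl2 (0.872). For Pparg they were Mrc1 (0.881), Tlr7 (0.876) and Mertk (0.857), and for Car4 Cd164 (0.939), Ccdc80 (0.919) and Mfsd2a (0.914). Among the followed genes themselves r was 0.639 between Chil3 and Pparg, 0.629 between Chil3 and Car4, and -0.521 between Retnla and Car4. Retnla and Chil3 were at -0.244.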

How the data were processed

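RNA of 18 samples was hybridised to 1-colour Affymetrix arrays. The authors deposited linear intensity per probe set, with array medians from 93.7 to 113.2. Extraction was by Trizol and labelling by biotin, per the labels' protocols. The authors' normalization of the intensity values was not given in the sources available. Here log2 was taken with no constant added and no further normalization.

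Of 24922 probe sets, 21425 had 1 gene symbol. Where a gene had several probe sets (921 genes), that of highest mean was kept. Genes over the 30th percentile of an array on 2 or more arrays were tested (15365). With limma 3.58.1 in R 4.3.3, group means were fitted to all 18 arrays together (10 residual degrees of freedom, prior 4.8), and p-values were adjusted over the genes tested by Benjamini-Hochberg. Tables and plots used pandas 2.3.3, numpy 2.4.6, matplotlib 3.10.9 and Python 3.11.15. The fit was tested on simulated data. No detection call was used, and the number of arrays limits the precision. Errors after a difference are standard errors, and those after a group mean are SD.

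The members and 20 gene lists (227 entries, 206 matched) were chosen with earlier results of these data known. All members are named. Of the other list genes, those called in a genotype comparison, a few fixed relatives and the 3 genes most similar to each variable member are named. Atp6v0d2, Cd36, Siglecf, Vsig4, Cd5l, Retn and Retnlg fall outside that rule, as do Kit, Mcpt8, Cxcr2, Fn1, F13a1, Plac8, Ccr2, Vcan, Alb and Apoa1. So do the list genes called between populations. All of these were chosen after their values were seen. Same-numbered lung CD103+ and CD11b+ arrays deviated together from their group means (r = 0.22 in BRAF and 0.159 in WT, across genes). With 2 arrays a group, each genotype has only 1 such r. A blocked fit on the number therefore stands beside that comparison.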

Additional observations from a re-analysis of the deposited data

How the results depend on the processing

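Of the values of single genes under the alternatives, 1010 kept their direction and their side of the threshold, 38 changed sign, 14 gained a call and 16 lost one. The alternatives were quantile or median scaling, an offset, other filters, averaged probe sets, trend and robust variances, array weights, separate fits of the compared groups, replicate blocks and leaving out each array; leaving out both arrays of narrowest spread was chosen after seeing the data. The cause of the changes was not tested. In liver 33 genes were called, against 66 after quantile normalization, 18 with averaged probe sets, 1 with array weights and 7 with only the groups compared; Retnla was lost (0 of 7 genes) with array weights and with the offset of 32. In BMDC 80 were called, against 1656 with array weights, 44 with only the groups compared and 52 with the replicate block, where the numbers share no pattern (r = 0.469, -0.231 and -0.399 for the 3 numbers). In lung CD11b+ cells 52 were called, against 369 with array weights and 149 without the narrow arrays. In lung CD103+ cells 13 were called, against 23 with trend and robust variances, 0 with only the groups compared and 21 without the narrow arrays. The mean effect called 152 genes, against 269 after quantile normalization and 324 without the narrow arrays, and the F test 19, against 29, 11 with median centring, 249 with array weights and 36 without the narrow arrays; 1 of the 7 genes (Retnla) was then called after quantile normalization and with array weights. Lung CD103+ against lung CD11b+ called 867, against 1357 without the narrow arrays, and 1 of the 7 genes in place of 2 with median centring, trend and robust variances or the replicate block. Liver against lung CD11b+ called 325, against 109 with only the groups compared. Calls were split 22 higher and 11 lower in liver, against 29 and 37 after quantile normalization and 37 and 11 with the offset. In BMDC the split was 51 and 29, against 32 and 29 with median centring, and in liver against lung CD11b+ 31 and 294, against 57 and 232 after quantile normalization.

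With each array left out, the genes called ran from 20 to 103 in BMDC, 15 to 358 in liver, 7 to 97 in lung CD11b+ cells, 3 to 96 in lung CD103+ cells, 580 to 898 for lung CD103+ against lung CD11b+, 81 to 1220 for liver against lung CD11b+, 67 to 280 for the mean effect and 5 to 88 for the F test. Of the 7 genes, 0 to 1 were called in liver, lung CD11b+ cells and the F test, 0 to 2 in lung CD103+ cells and the mean effect, and 1 to 2 for lung CD103+ against lung CD11b+.

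Signs turned in 38 cases, each for a difference that was not called. In BMDC they were Pparg after quantile normalization (0.15) and with array weights (0.01), Krt79 after quantile normalization (-0.04) and without the narrow arrays (-0.02), and Il4ra (0.04) and Stat6 (0.09) without the narrow arrays. In liver they were Stat6 after quantile normalization and without the narrow arrays (-0.19 in both), and Chil3 (-0.28) and Krt79 (0.08) without the narrow arrays. Il4ra in liver against lung CD11b+ was -0.05 with median centring. With each array left out, these ranges crossed 0: in BMDC Pparg (-0.21 to 0.10), Krt79 (-0.02 to 0.14), Il4ra (-0.57 to 0.04) and Stat6 (-0.69 to 0.09); in liver Chil3 (-0.28 to 3.16), Krt79 (-0.45 to 0.08) and Stat6 (-0.19 to 0.58); in lung CD103+ cells Car4 (-2.04 to 3.09) and Krt79 (-0.90 to 0.05). In the mean effect they were Car4 (-0.08 to 1.20) and Krt79 (-0.17 to 0.07). For liver against lung CD11b+ they were Car4 (-1.99 to 0.11), Krt79 (-0.24 to 0.10) and Il4ra (-0.04 to 0.10), and for lung CD103+ against lung CD11b+ Chil3 (-0.16 to 2.56), Car4 (-0.05 to 2.52), Krt79 (-0.16 to 0.32) and Stat6 (-0.18 to 0.03).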
